A study of Homo sapiens with 24 samples.

Results

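The genes described here encode the machinery of mitosis, the stage at which a cell separates its copied chromosomes and divides. They are a list of 52 names covering mitotic cyclins and kinases, the kinetochore, the spindle checkpoint, mitotic kinesins, spindle proteins and the cytokinesis apparatus, chosen by name, with no measured value in the rule, although earlier results of these data were known when the list was drawn up. Of the 52, 51 had a row among the 22026 genes of the authors' expression table, and KIFC1 is not analysed here. Values are RPKM, the reads of a gene per kilobase of gene length, with each library brought to the same number of mapped reads. All 51 had a mean of at least 1 RPKM over the libraries and so were among the 12029 genes tested. They lie on 18 chromosomes.

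The cells were A549, an established line from a human lung adenocarcinoma. One group was kept in medium conditioned by cells labelled CAF, an abbreviation the labels do not spell out and which in this field usually means cancer-associated fibroblasts, and the other group was kept in control medium. Polyadenylated RNA was sequenced after 3, 6, 12, 24, 48 and 72 h, which gave 6 CAF medium libraries and 6 control medium libraries, 1 per medium and time. The labels do not name the source of the CAF, the make-up of the control medium or the plating density. The design text speaks of 2 biological replicates that are not separate in the values, so a difference at a single time has no replicate check. Each CAF medium library was set against the control library of its own time, and the times served as replicates. The resulting p-values therefore reflect no more than the scatter among these libraries, and that scatter may be technical.

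The libraries held 26.5 to 40.7 M reads in CAF medium and 23.95 to 40.04 M in control medium, as worked out from the values, and those of 24 to 72 h (at least 34.07 M) were deeper than those of 3 to 12 h (at most 29.3 M) in both media. A member's value in a library rested on 106 to 43722 reads. Of 6 epithelial markers, the keratin genes KRT7, KRT8 and KRT18 measured 677 to 2357 RPKM in this epithelial line, while KRT19 (1.56 to 34.1 RPKM), CDH1 (4.68 to 40.04 RPKM) and EPCAM (0.24 to 6.46 RPKM) were far lower. Of 10 fibroblast markers, COL1A2, COL3A1, COL6A3 and PDGFRB reached at most 0.16 RPKM in any library, DCN, PDGFRA, LUM and THY1 at most 0.6, 1, 1.43 and 2.22 RPKM, and FAP and COL1A1 at most 4.71 and 5.81 RPKM. Of 6 leukocyte and endothelial markers, PTPRC, PECAM1, VWF and CDH5 reached at most 0.08 RPKM and CD14 at most 2.2 RPKM, but CD68 measured 13.96 to 30.6 RPKM in every library. The summed level of the 10 fibroblast genes was 8.71 to 12.1 RPKM in CAF medium and 4.89 to 11.6 RPKM in control medium.

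As background, entry into mitosis is driven by cyclin-dependent kinase 1 bound to cyclin A or B, which CDC25 phosphatases activate. Kinetochores built on centromeric chromatin attach chromosomes to spindle microtubules, the checkpoint holds the cell until all are attached, and the anaphase-promoting complex then releases the sisters and destroys the cyclins. The genes for these proteins are transcribed mainly late in the cell cycle. In cycling cells MYBL2 and FOXM1, both bound to the MuvB core, activate them, and in resting cells the same core forms the repressive DREAM complex. Much of this control acts through a promoter element named CHR and through CCAAT boxes, which the factor NF-Y binds.

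The promoters of the members are described first, and no link between their letters and the levels was tested. RefSeq windows of 300 bases (250 before to 50 after the annotated start, GRCh38.p14) were at hand for 45 of the 51 members. Among the members with the largest late fall, the stretches of SPC25 (chr2:168890401-168890580, minus strand), HMMR (chr5:163460482-163460661, plus strand), MKI67 (chr10:128126394-128126573, minus strand) and KIF4A (chrX:70289954-70290133, plus strand) are shown, the first 4 by size of fall that hold both elements. Each runs from 150 bases before to 30 after the start, read along the gene, and capitals mark the CHR letters TTTGAA or TTTAAA and the CCAAT box, which reads ATTGG where it lies on the other strand.
SPC25: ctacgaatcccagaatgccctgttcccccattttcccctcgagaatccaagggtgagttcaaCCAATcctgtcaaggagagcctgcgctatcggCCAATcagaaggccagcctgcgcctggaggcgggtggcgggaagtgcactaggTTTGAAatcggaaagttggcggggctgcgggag
HMMR: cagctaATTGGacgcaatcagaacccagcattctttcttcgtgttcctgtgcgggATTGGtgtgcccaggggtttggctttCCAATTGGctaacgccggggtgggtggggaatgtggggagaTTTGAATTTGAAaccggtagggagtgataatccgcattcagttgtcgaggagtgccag
MKI67: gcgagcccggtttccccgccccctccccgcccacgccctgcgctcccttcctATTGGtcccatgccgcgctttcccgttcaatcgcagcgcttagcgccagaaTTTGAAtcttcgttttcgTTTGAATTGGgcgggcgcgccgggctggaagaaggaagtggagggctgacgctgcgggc
KIF4A: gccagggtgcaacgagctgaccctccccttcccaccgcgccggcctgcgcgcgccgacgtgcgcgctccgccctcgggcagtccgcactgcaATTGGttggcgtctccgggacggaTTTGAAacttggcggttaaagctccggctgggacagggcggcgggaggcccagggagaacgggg

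In these 180 bases SPC25 had 1 CHR match, beginning 3 bases before the start, and CCAAT boxes that begin 88 and 56 bases before it. In HMMR a pair of adjacent CHR matches began 28 and 22 bases before the start, and the last 2 of its 4 CCAAT boxes overlapped each other. In MKI67 the second of 2 CHR matches overlapped a reversed CCAAT box that begins 24 bases before the start. KIF4A had 1 of each.

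Over the whole windows and both strands, CHR letters were found in 37 of 45 members (82.2%), against 24.3% of the 27305 genes with a window. TTTGAA alone was found in 71.1% of these members and 15.4% of all windows, and TTTAAA in 31.1% and 12.3%. CCAAT was found in 36 members (80.0%), against 35.7% of all windows, and at least 2 copies were found in 22 members (48.9%), against 11.3%. Both elements stood in 30 members (66.7%), against 9.49% of all windows, and the E2F letters TTCCCGC or TTGGCGC in 11 members (24.4%), against 9.33%. CDC25B, whose values go against the other members below, had neither CHR nor CCAAT letters in its window. Neither did CDC25C, which fell late, while ECT2 had both. CCNA2, NEK2, BUB1, AURKB, SPC24 and KIF22 had CCAAT but no CHR letters in theirs and also fell late. Only the first listed window of each gene was read, so elements at another start or outside that window were not seen. The 27305 genes are all those with a window, whether or not they were tested here. These shares describe letters, with no match for base composition or expression, and do not show that a factor was bound.

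From 24 to 72 h the mitotic genes fell together in CAF medium. Of the 51 members 47 passed the test as lower and 0 as higher, against 2.74% of all tested genes lower and 1.36% higher (limma, Benjamini-Hochberg adjustment over the 12029 genes, two-sided, threshold 0.05). At an unadjusted p under 0.05 50 members passed. The median log2 difference of the members was -0.98, against -0.02 for all tested genes, and the 47 made up 14.3% of the 329 genes that fell. Differences are on the log2(RPKM + 0.5) scale, which understates the change of low genes. In bulk RNA fewer cells in mitosis and less of each transcript per cell cannot be told apart. With the 48 h pair left out 50 of 51 members were still lower but 7 passed, namely CCNA2, CDCA8, KIF20A, KIF4A, NDC80, SPC25 and UBE2C. With the 72 h pair left out 34 passed, and with no filter on low values 8 passed, at the same differences. The epithelial adhesion genes EPCAM (log2 1.03, adjusted p = 0.0202 by limma) and CDH1 (log2 0.94, adjusted p = 0.0434) rose over the same times. The epithelial keratin genes KRT7, KRT8, KRT18 and KRT19 did not pass (log2 -0.30, -0.30, -0.08 and 0.30). How these genes relate to the mitotic genes was not tested.

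**Figure D1:**
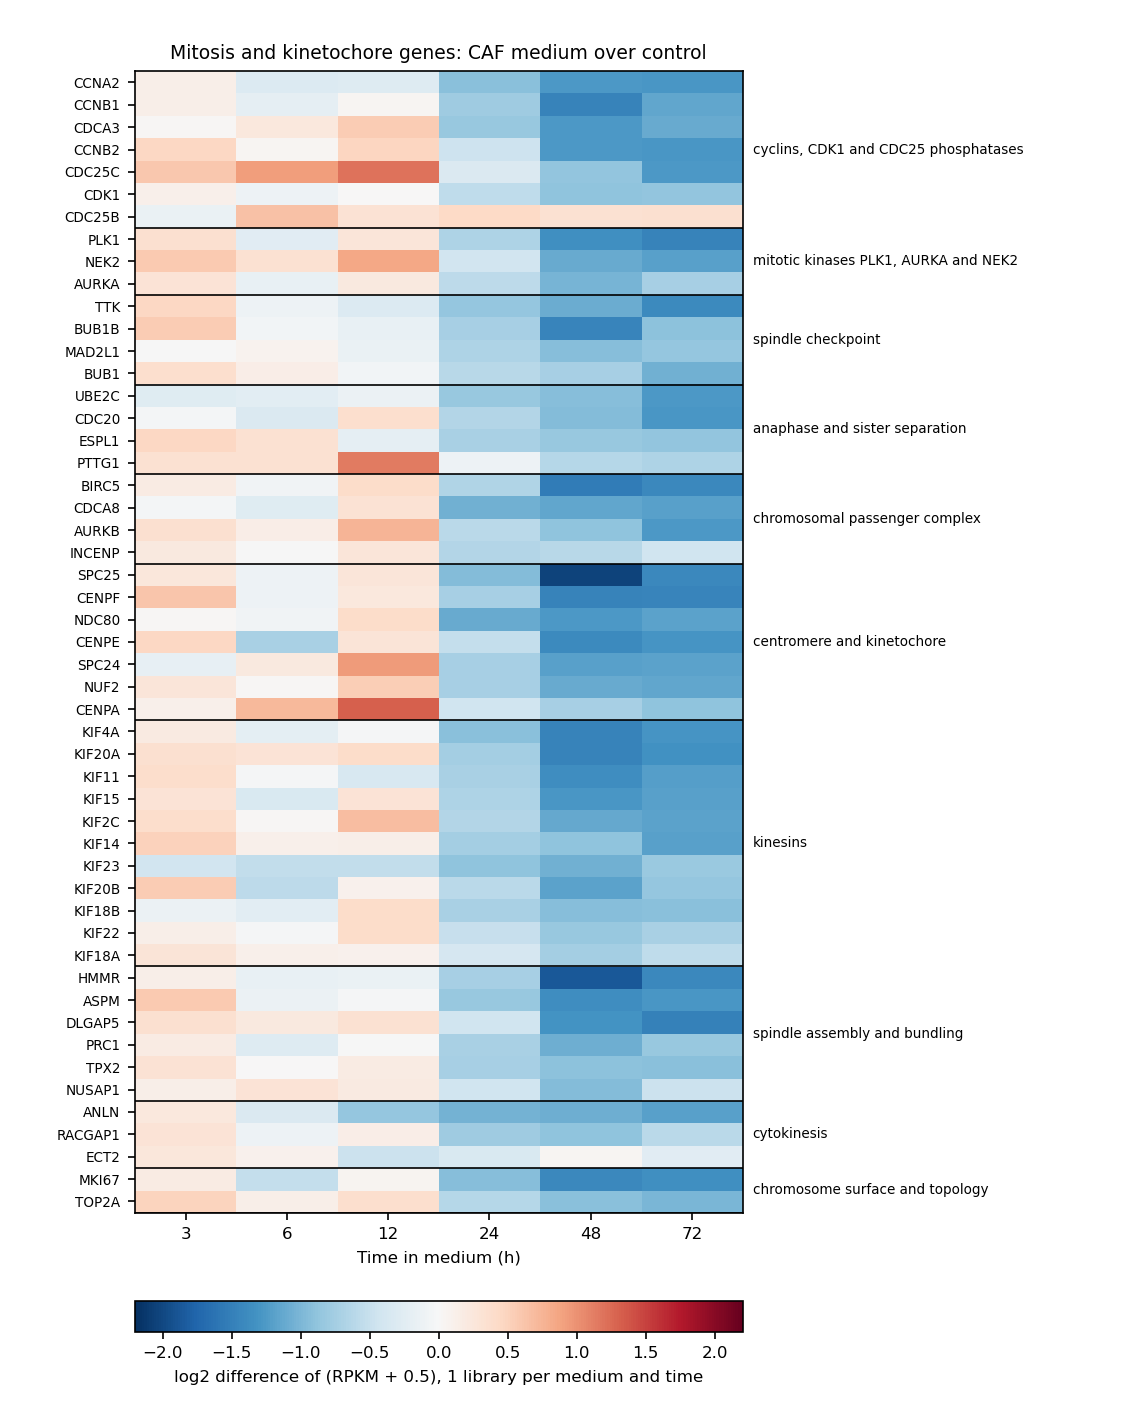
Log2 difference of each of the 51 members between the CAF medium and the control library of the same time (columns, hours), grouped by role and ordered within a role by the late difference. Blue is lower and red higher in CAF medium: at 24, 48 and 72 h 50, 49 and 50 members were lower, and CDC25B was the 1 member higher at all 3 late times.

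Among the genes that drive entry, 6 of 7 fell late: the cyclin genes CCNA2, CCNB1 and CCNB2, the kinase gene CDK1, the phosphatase gene CDC25C and CDCA3, a factor for destruction of the entry inhibitor WEE1. Their late log2 differences ran between -1.16 and -0.77. CCNA2, which encodes cyclin A2, measured 17.9, 7.72 and 4.94 RPKM in CAF medium at 24, 48 and 72 h, against 34.2, 19.3 and 12.8 RPKM in control medium (log2 -1.16 ± 0.14, SE, 3 pairs, adjusted p = 0.00338 by limma). It was lower at each of these times, but the ranges over the 3 times overlapped, with the 24 h CAF value above the 72 h control value. The ranges also overlapped for every other member whose late values are listed here. CDC25B, a phosphatase that activates CDK1 at the centrosome, went the other way in direction: 65.1, 83.8 and 90.8 RPKM in CAF medium, against 47.9, 66.6 and 70.6 RPKM in control medium. Its difference did not pass (log2 0.38 ± 0.15, adjusted p = 0.179).

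All 3 mitotic kinase genes of this group fell. PLK1, the polo-like kinase that acts at entry, centrosomes and kinetochores, measured 18.8, 8.33 and 4.28 RPKM in CAF medium, against 30.3, 22.04 and 12.7 RPKM in control medium (log2 -1.17 ± 0.17, adjusted p = 0.00542). The centrosomal kinase genes NEK2 and AURKA fell by 0.91 and 0.77 on the log2 scale (adjusted p = 0.0129 and 0.0124). The 4 genes of the chromosomal passenger complex, which corrects wrong attachments and later marks the cleavage plane, also fell. BIRC5 (survivin) measured 30.1, 10.5 and 6.39 RPKM in CAF medium, against 47.8, 31.6 and 17.8 RPKM in control medium (log2 -1.20 ± 0.17, adjusted p = 0.00466). AURKB, the kinase of the complex and its most abundant transcript here, measured 33.9, 20.1 and 10.1 RPKM in CAF medium, against 51.6, 37.5 and 24.9 RPKM in control medium (log2 -0.92, adjusted p = 0.00972). CDCA8 (borealin) and INCENP stood at -1.13 and -0.56.

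At the kinetochore 6 of 7 members fell, and this group held the largest fall of the list. SPC25, 1 of the 4 subunits of the NDC80 complex that grips microtubules, measured 12.6, 3.21 and 3.26 RPKM in CAF medium, against 25.0, 14.7 and 9.55 RPKM in control medium (log2 -1.47 ± 0.18, adjusted p = 0.00366). Its CAF level was 21.9% of the control level at 48 h. The other subunits NDC80, NUF2 and SPC24 fell by 1.18, 0.99 and 1.03 on the log2 scale (adjusted p = 0.00331, 0.00466 and 0.0135), so all 4 fell. CENPF, a large kinetochore protein and the most abundant transcript of this group, measured 33.5, 15.2 and 10.3 RPKM in CAF medium, against 56.1, 42.9 and 29.1 RPKM in control medium (log2 -1.22 ± 0.18, adjusted p = 0.00476). CENPE, a kinetochore motor, fell by 1.08 (adjusted p = 0.0245). CENPA, the histone H3 variant of centromeres, measured 14.7, 9.34 and 4.79 RPKM in CAF medium, against 20.2, 15.9 and 9.30 RPKM in control medium, lower at each late time but not past the test (log2 -0.69 ± 0.20, adjusted p = 0.0757).

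The 4 spindle checkpoint genes fell by a median of 0.92 on the log2 scale. TTK (the kinase MPS1, at the head of the checkpoint) measured 6.2, 3.36 and 1.51 RPKM in CAF medium, against 11.5, 7.69 and 4.8 RPKM in control medium (log2 -1.11, adjusted p = 0.00553). MAD2L1, the inhibitor of the anaphase-promoting complex and the most abundant of the 4, stood at -0.82 (adjusted p = 0.00542), and BUB1B and BUB1 at -1.03 and -0.80. Of the 4 genes of anaphase 3 fell. UBE2C, the ubiquitin-conjugating enzyme of the complex, measured 8.28, 4.81 and 2.43 RPKM in CAF medium, against 15.2, 9.71 and 6.55 RPKM in control medium (log2 -1.01 ± 0.13, adjusted p = 0.00366). CDC20, which activates the complex, and ESPL1, the protease separase that cuts cohesin, fell by 0.96 and 0.80. PTTG1 (securin, the separase inhibitor) measured 63.4, 36.9 and 30.9 RPKM in CAF medium, against 68.9, 57.1 and 50.1 RPKM in control medium, and did not pass (log2 -0.48 ± 0.18, adjusted p = 0.153). PTTG1 and KIF4A have near-identical copies elsewhere in the genome, and the assignment of shared reads to them is not described.

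All 11 kinesin genes fell, with late log2 differences between -1.23 and -0.55. KIF4A, a chromosome-bound motor, measured 12.9, 5.08 and 3.72 RPKM in CAF medium, against 24.7, 14.98 and 9.84 RPKM in control medium (log2 -1.23 ± 0.14, adjusted p = 0.00331). KIF20A, a motor of the central spindle, measured 14.8, 6.26 and 3.94 RPKM in CAF medium, against 25.4, 18.1 and 10.7 RPKM in control medium (log2 -1.18 ± 0.15, adjusted p = 0.00366). KIF23, the motor of the centralspindlin complex and the most abundant kinesin of the list, measured 39.6, 20.5 and 18.0 RPKM in CAF medium, against 73.8, 43.1 and 32.3 RPKM in control medium (log2 -0.92 ± 0.12, adjusted p = 0.00366). KIF11 (Eg5), which pushes the spindle poles apart, stood at -1.10, and KIF18A, which damps chromosome movement, had the smallest fall of the 11 (-0.55, adjusted p = 0.0372).

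All 6 genes for spindle assembly and bundling fell. HMMR, a spindle and hyaluronan-binding protein, measured 28.8, 9.77 and 8.43 RPKM in CAF medium, against 48.2, 36.9 and 23.5 RPKM in control medium (log2 -1.34 ± 0.18, adjusted p = 0.00403). PRC1, which bundles midzone microtubules and was the most abundant of the group, measured 69.2, 36.9 and 34.4 RPKM in CAF medium, against 114.3, 78.6 and 61.5 RPKM in control medium (log2 -0.88, adjusted p = 0.00605). ASPM, DLGAP5, TPX2 and NUSAP1 fell by 1.16, 1.07, 0.85 and 0.62 on the log2 scale. Of the 3 cytokinesis genes ANLN (anillin, a scaffold of the contractile ring) measured 30.5, 13.2 and 8.73 RPKM in CAF medium, against 63.1, 28.2 and 20.6 RPKM in control medium (log2 -1.10 ± 0.18, adjusted p = 0.00679). RACGAP1, the partner of KIF23 in centralspindlin, fell by 0.75 (adjusted p = 0.00995). ECT2, the RhoA activator of the ring, was named after its values were seen: it measured 31.7, 31.03 and 21.7 RPKM in CAF medium, against 39.9, 30.03 and 25.8 RPKM in control medium, and the groups lay close together (log2 -0.17 ± 0.15, adjusted p = 0.557).

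The proliferation marker MKI67, whose protein coats mitotic chromosomes, measured 29.6, 11.8 and 8.68 RPKM in CAF medium, against 57.2, 32.4 and 22.8 RPKM in control medium (log2 -1.23 ± 0.16, adjusted p = 0.00366). TOP2A, the topoisomerase that untangles sister chromatids and the most abundant member by mean level (151 RPKM over the 12 libraries), measured 131.9, 81.2 and 50.8 RPKM in CAF medium, against 204.1, 154.3 and 101.9 RPKM in control medium (log2 -0.85 ± 0.13, adjusted p = 0.00625). The lowest member by mean was ESPL1, at 2.1 RPKM.

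**Figure D2:**
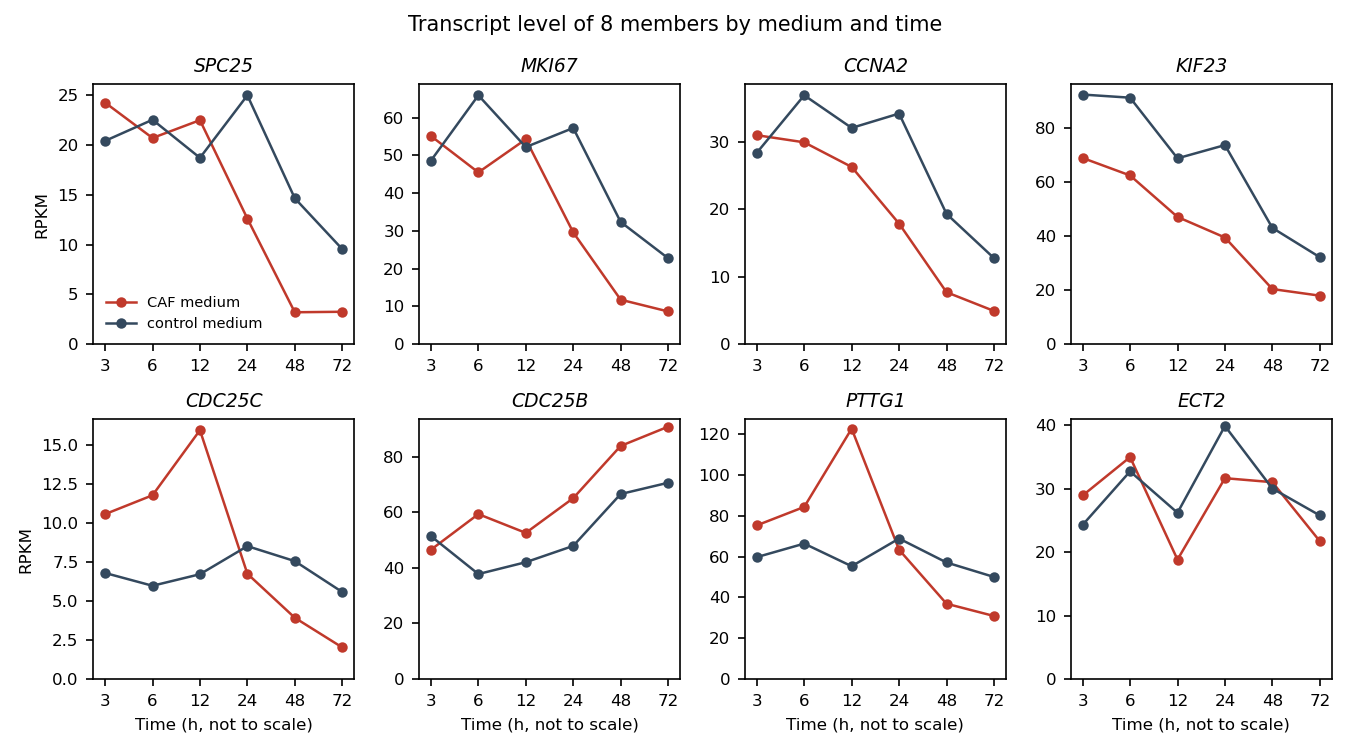
RPKM of 8 members (vertical axis, from 0) by time in hours in CAF medium (red) and control medium (dark blue), 1 library per point. SPC25, MKI67 and CCNA2 separate from 24 h on, KIF23 is lower in CAF medium at all 6 times, CDC25C and PTTG1 are higher in CAF medium at 3 to 12 h and lower at 24 to 72 h, CDC25B is higher at 72 h than at 24 h in both media, and the ECT2 curves cross.

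The difference turned negative between 12 and 24 h. The median log2 difference of the members was 0.27, -0.06 and 0.23 at 3, 6 and 12 h and -0.71, -1.09 and -1.18 at 24, 48 and 72 h. At 24 h 3 members were at least 2-fold lower in CAF medium, at 48 h 30 and at 72 h 31, against 0.707%, 3.17% and 0.757% of all tested genes. No member was at least 2-fold lower at 3, 6 or 12 h, and 49 were lower at each of the 3 late times, against 26.4% of all tested genes. The median member stood at 60.1%, 45.0% and 41.2% of its control level at 24, 48 and 72 h. Single times have 1 library per medium and no test.

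Levels were also lower at the later times in control medium. The median RPKM of the members was 24.3, 23.9, 24.5, 16.9, 8.04 and 4.91 over the 6 times in CAF medium and 20.6, 24.2, 19.9, 25.4, 18.0 and 11.5 in control medium. In control medium 29 members had their highest value at 24 h, while in CAF medium 50 had theirs at 3 to 12 h. Between 12 and 24 h the median log2 change was -0.58 in CAF medium and 0.33 in control medium, and between 24 and 72 h it was -1.52 in CAF medium and -1.07 in control medium. In the CAF library of 48 h 48 members were lower than in the control library of 72 h, against 56.1% of all tested genes. For 46 members the CAF library of 72 h held the lowest of the 12 values, against 11.1% of all tested genes. The members together took 0.448% of the summed RPKM in CAF medium and 0.349% in control medium at 3 h, and 0.131% in CAF medium and 0.240% in control medium at 72 h.

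As a slope on log2 hours, with both media averaged at each time, 48 members fell, against 9.62% of all tested genes, and 1 rose, CDC25B, against 15.1% (limma, Benjamini-Hochberg, 6 times). The median slope of the members was -0.31 log2 units per doubling of time, against 0.02 for all tested genes. BIRC5 had the steepest slope (-0.44, adjusted p = 0.00534), followed by KIF18B, a plus-end depolymerase (-0.43, adjusted p = 0.00285), SPC25 (-0.43) and UBE2C (-0.43). MKI67, NDC80, CCNA2 and ANLN had slopes between -0.41 and -0.40, and CDC25B had a slope of 0.17 (adjusted p = 0.0173), which missed the threshold in 3 of the 6 fits that leave out a time (adjusted p up to 0.128). In the CAF libraries alone 48 members fell, against 5.18% of all tested genes, and in the control libraries alone 9, against 5.95%. The difference between these 2 counts was not tested as such. Over both media 12 members passed when 72 h was left out, 29 when 48 h was and 30 when 6 h was. Sequencing depth was also higher at the later times, and its part in the slopes was not tested.

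Before the fall most members stood slightly higher in CAF medium on average over 3 to 12 h, though not at 6 h, with few past the test. Over 3 to 12 h the median log2 difference was 0.13, against 0.03 for all tested genes, 11 members had a negative and 40 a positive difference, where 45.6% of all tested genes were negative, and 1 rose and 1 fell past the test, against 3.77% and 1.86% of all tested genes (limma, 9 members at an unadjusted p under 0.05). CDC25C, which with CDC25B activates CDK1, measured 10.6, 11.8 and 15.95 RPKM in CAF medium at 3, 6 and 12 h, against 6.80, 5.98 and 6.72 RPKM in control medium (log2 0.90 ± 0.18, adjusted p = 0.0236), and its groups did not overlap. KIF23 measured 69.1, 62.6 and 47.2 RPKM in CAF medium, against 92.6, 91.4 and 68.9 RPKM in control medium (log2 -0.50 ± 0.12, adjusted p = 0.0388), lower at each time. CENPA measured 17.1, 22.9 and 30.6 RPKM in CAF medium, against 15.9, 13.9 and 12.0 RPKM in control medium, and did not pass (log2 0.71 ± 0.20, adjusted p = 0.0575). At 3 h 8 members were lower and 43 higher, where 40.2% of all tested genes were lower. At 6 h 29 were lower and 22 higher, where 45.7% of all tested genes were lower. At 12 h 15 were lower and 36 higher, where 49.1% of all tested genes were lower. In all 16 were higher at 3, 6 and 12 h alike, against 26.7% of all tested genes. With 6 h or 12 h left out 0 members passed (limma, 9 and 3 at an unadjusted p under 0.05), with 72 h left out 1 and with 24 h left out 5, so that KIF23 lost its call in 4 of these 6 fits and CDC25C in 2. The fibroblast collagen gene COL1A1 was also higher in CAF medium over these times, at 5.81, 4.02 and 4.84 RPKM, against 1.91, 1.37 and 2.89 RPKM in control medium (log2 1.11, adjusted p = 0.0259). THY1, another fibroblast marker and too low to be tested, stood at 0.53, 0.57 and 0.92 RPKM in CAF medium, against 0.14, 0.12 and 0.15 RPKM in control medium. FAP, the only other fibroblast marker tested, had an early log2 difference of -0.04 (adjusted p = 0.909 by limma). LUM was lower in CAF medium at 6 and 12 h and PDGFRA at 12 h, so the fibroblast markers did not all move alike. The epithelial keratin gene KRT19 also rose early (log2 1.58, adjusted p = 0.0217 by limma), the only 1 of the 6 epithelial markers past the early test. The part of these genes in the early differences was not tested.

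At 12 h 3 members were at least 2-fold higher in CAF medium, against 2.96% of all tested genes. They were CENPA (log2 1.32), CDC25C (1.19) and PTTG1 (1.14), of which PTTG1 measured 122.7 RPKM in CAF medium and 55.3 RPKM in control medium.

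**Figure D3:**
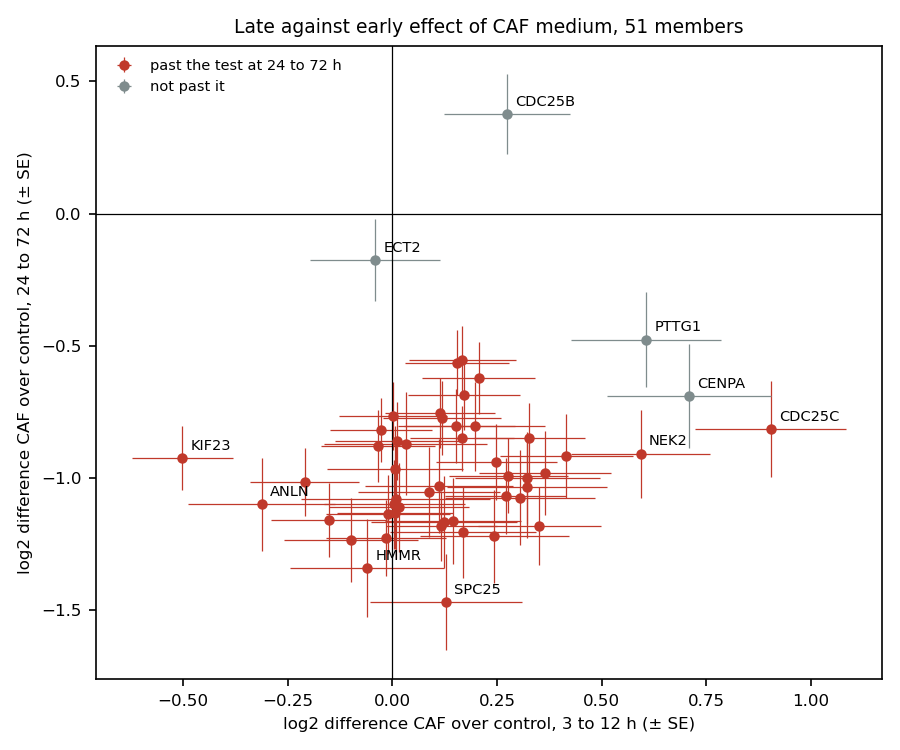
Late log2 difference (24 to 72 h, vertical) against early log2 difference (3 to 12 h, horizontal) of the 51 members, CAF over control, with SE bars from the shared fit. The 47 members past the late test (red) lie between -1.47 and -0.55 on the vertical axis, while on the horizontal axis the members spread between -0.50 and 0.90.

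The late minus early difference was tested in the same fit. It was negative for 50 of 51 members (median log2 -1.13, against -0.06 for all tested genes), and 20 passed as lower and 0 as higher, against 0.357% and 0.0582% of all tested genes (limma, Benjamini-Hochberg, 49 members at an unadjusted p under 0.05). These 20 made up 46.5% of the 43 genes that passed as lower, and 39.2% of the members. Among the 20 that passed, CDC25C had the largest difference (-1.72, adjusted p = 0.0364), followed by SPC25 (-1.60), KIF20A (-1.53), NEK2 (-1.50), CENPF (-1.46), DLGAP5 (-1.38), BIRC5 (-1.37) and KIF2C (-1.35), a microtubule depolymerase. CENPA (-1.40, adjusted p = 0.0645) and SPC24 (-1.36, adjusted p = 0.0663) had differences of like size that did not pass. KIF23 stood at -0.42 (adjusted p = 0.383). The 20 adjusted p lay between 0.0364 and 0.0494, close to the threshold, and 0 members passed without the 3, 6, 12, 48 or 72 h pair (limma, 48 or 49 members at an unadjusted p under 0.05), while 35 passed without the 24 h pair.

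Across all 6 times together 4 members fell and 0 rose, against 4.13% and 6.06% of all tested genes (limma, Benjamini-Hochberg, 23 members at an unadjusted p under 0.05). They were KIF23 (log2 -0.71, adjusted p = 0.0117), ANLN (-0.71, adjusted p = 0.0317), UBE2C (-0.61, adjusted p = 0.0329) and CCNA2 (-0.66, adjusted p = 0.0446). KIF23 and UBE2C were lower in CAF medium at 6 of 6 times, ANLN and CCNA2 at 5. The median log2 difference of the members was -0.41, against 0.002 for all tested genes. Without any 1 of the 6, 12, 24, 48 or 72 h pairs 1 member passed, KIF23. Without the 3 h pair 15 passed, of which 14 were lower and the other higher.

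The levels of most members followed one another. Over the 12 libraries the median Pearson r of the log2 values between 2 members was 0.94 over 1275 pairs, and 73.3% of pairs had r of at least 0.9. For 45 members r with the median of the other members, each centred on its own mean, was at least 0.9. It was 0.31 for ECT2 and -0.86 for CDC25B. These values are a description, since all genes of a library share its depth and time.

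Mitotic genes outside the list were lower late as well. Of 86 such genes, 37 fell and 0 rose over 24 to 72 h (median log2 -0.51), that is 43.0%, beside 47 of the 51 members. Of all tested genes 2.74% fell and 1.36% rose over these times. For the factors around the spindle, centrosome and cytokinesis 11 of 16 fell, with CKAP2L, a spindle pole protein, the largest (log2 -1.22, adjusted p = 0.00331). In the outer kinetochore and checkpoint list 9 of 17 fell, led by ZWINT, which recruits the checkpoint complex RZZ. ZWINT measured 13.4, 3.13 and 3.97 RPKM in CAF medium, against 29.6, 15.7 and 8.89 RPKM in control medium (log2 -1.45, adjusted p = 0.00432).

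In the inner kinetochore and CENP-A loading list 7 of 17 fell, with MLF1IP (named CENPU in newer annotations) at log2 -1.12 (adjusted p = 0.00931). Of 13 condensin and cohesin genes 5 fell, all of them condensin subunits: NCAPG (log2 -1.41, adjusted p = 0.00331), NCAPH, NCAPG2, SMC4 and SMC2. Of 11 genes of entry control and mitotic ubiquitin factors 5 fell, with GTSE1 at -1.07 (adjusted p = 0.00366). Of the 12 genes for the anaphase-promoting complex and its activator FZR1, 0 fell and 0 rose late (median log2 -0.08). Over 3 to 12 h FZR1 rose (log2 0.58, adjusted p = 0.044 by limma), as did PSRC1, a spindle protein (log2 0.71, adjusted p = 0.0346). They were the only 2 of these 86 genes that passed early, against 3.77% of all tested genes higher and 1.86% lower.

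**Figure D4:**
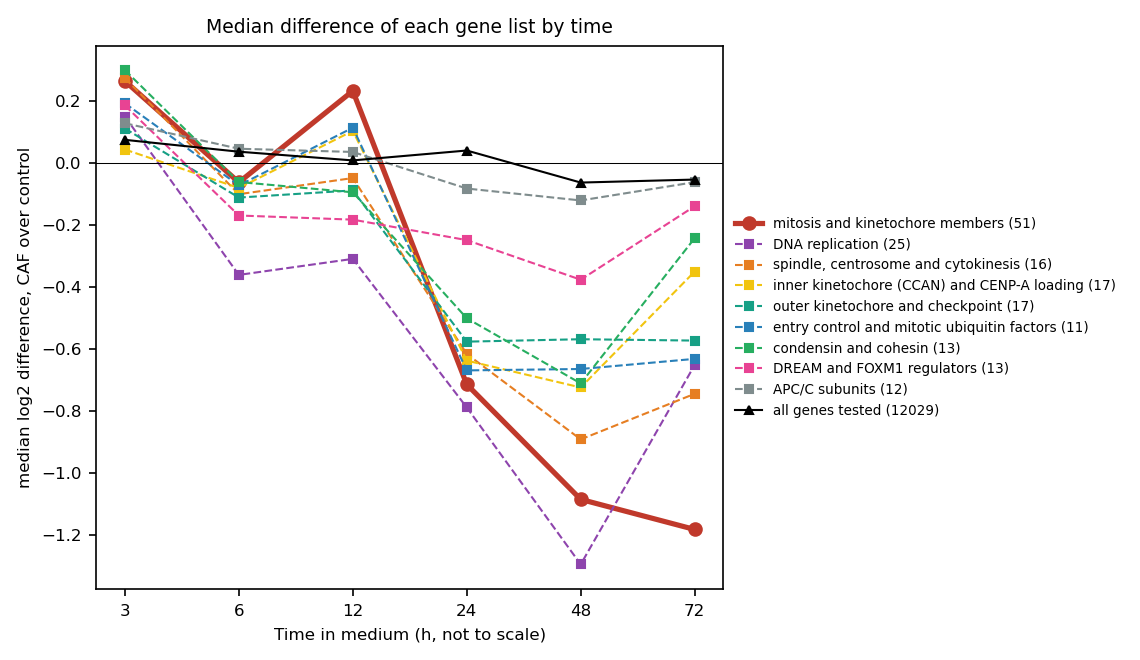
Median log2 difference between CAF medium and control medium at each time (hours) for the 51 members (thick red), 8 other gene lists (dashed, number of genes in brackets) and all tested genes (black). At 72 h the members lie lowest (-1.18), but at 24 and 48 h the DNA replication list lies lower (-0.79 and -1.30) than the members (-0.71 and -1.09). The anaphase-promoting complex list (grey) stays near the median of all genes.

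Of 13 genes for the regulators of this program 3 fell late, against 2.74% of all tested genes. MYBL2 (B-MYB) measured 22.8, 5.03 and 3.77 RPKM in CAF medium, against 49.1, 26.3 and 12.9 RPKM in control medium (log2 -1.67 ± 0.19, adjusted p = 0.00331), a larger fall than that of any member. FOXM1 measured 8.09, 2.76 and 2.1 RPKM in CAF medium, against 15.9, 8.86 and 4.56 RPKM in control medium (log2 -1.14 ± 0.16, adjusted p = 0.00391), and RBL1 (p107) fell by 0.80 (adjusted p = 0.0425). Genes of the MuvB core (LIN9, LIN37, LIN52, LIN54 and RBBP4) had late log2 differences between -0.47 and 0.00, none past the test. The regulator genes RBL2 (p130), E2F4, E2F5 and TFDP1 stood at 0.27, -0.18, 0.07 and -0.39, also none past the test. CDKN1A, the inhibitor p21 that acts upstream of DREAM, measured 46.1, 117.6 and 70.2 RPKM in CAF medium, against 43.2, 60.3 and 56.9 RPKM in control medium, higher at each late time but not past the test (log2 0.45 ± 0.18, adjusted p = 0.181).

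DNA replication genes, which are transcribed earlier in the cycle, fell late beside the mitotic genes. Of 25, 20 fell over 24 to 72 h and 0 rose (median log2 -0.90), against 2.74% of all tested genes lower and 1.36% higher. MCM10, a replication initiation factor, had the largest fall (log2 -1.69 ± 0.20, adjusted p = 0.00331 by limma). Over 3 to 12 h the median of the replication genes was -0.18, where that of the mitotic members was 0.13, and 2 of 25 fell, against 1.86% of all tested genes. Across the 6 times 10 of these 25 fell, beside 4 of the 51 members and 4.13% of all tested genes. At 48 and 72 h the medians of the replication genes were -1.30 and -0.65, and those of the mitotic members -1.09 and -1.18. Whether the lists differ was not tested.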

How the data were processed

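Directional libraries were made from polyadenylated RNA, per the labels' protocols. The authors deposited RPKM values, rounded to 2 decimals, beside gene model lengths. The build hg19 and the tools TopHat2 and edgeR are named in the submitters' processing notes. How reads were counted, whether strand was used, which annotation served and how the 2 biological replicates were joined is not stated there or in the labels, so reads of overlapping or antisense genes cannot be told apart. Of the values of gene models under 400 bases that were checked (45 to 85 in each library), 100% lay within 0.1 read of a whole number of reads, which gave the depths. Reads are not unique molecules.

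Tests used limma 3.58.1 under R 4.3.3 (lmFit, eBayes with trend, two-sided) on log2(RPKM + 0.5), for genes whose mean reached 1 RPKM, adjusted by Benjamini-Hochberg over all 12029 genes at 0.05. The fit over 6 times had time as a factor (5 residual degrees of freedom). The early and late effects and their difference came from a fit with 1 medium effect for each part of the time course (4 residual degrees of freedom). The slope on log2 hours of the mean of both media was a separate fit, also with 4 residual degrees of freedom. How the p-values behave where the medium effect changes from time to time, as it did here, was not tested. The members, lists and tests were chosen with earlier results of these data known. Genes named were those past the test over 6 times, the 8 largest changes per direction in the other fits (the 3 lowest p where fewer than 5 passed), the most abundant member and the largest late difference of each role group, and the largest late difference of each other list. Other members are given beside them to complete their group. Alternatives were other pseudocounts (0.1 and 1), filters (none, or a mean of at least 5 RPKM), median centring, quantile normalization, no trend, no time term, all 12 libraries with medium as a term, each medium alone (added after seeing the data) and leaving out each time. The small RNA libraries were not used here.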

Additional observations from a re-analysis of the deposited data

Results flagged for a closer look

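The late effect of CAF medium differed from the early effect for 20 members by the test of the difference itself (limma, Benjamini-Hochberg over all tested genes). Among the named members these were CDC25C (log2 difference of the effects -1.72, adjusted p = 0.0364), SPC25 (-1.60, adjusted p = 0.0364), KIF20A (-1.53, adjusted p = 0.0364) and NEK2 (-1.50, adjusted p = 0.0364). They were also CENPF (-1.46, adjusted p = 0.0403), DLGAP5 (-1.38, adjusted p = 0.049), BIRC5 (-1.37, adjusted p = 0.046) and KIF2C (-1.35, adjusted p = 0.0385). In CDC25C, KIF20A, NEK2, DLGAP5 and KIF2C the CAF value was above the control value at each early time and below it at each late time, while in SPC25, CENPF and BIRC5 it was above at 2 of the 3 early times and below at each late time. No library stood apart from the other times in any of the 78 sets of 6 values checked for the 26 named members.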

How the results depend on the processing

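No named member and no median of the members changed sign under any alternative run. Of the alternatives for single genes 478 kept their side of the threshold, 123 lost it and 2 gained it. The 47 members called over 24 to 72 h became 8 with no filter on low values, and leaving out each time gave 7 to 48, with 7 without the 48 h pair. Their median log2 difference stayed between -1.13 and -0.88 when a time was left out. The 4 members called over the 6 times became 0 with no filter and 0 with no time term (limma, 14 and 0 at an unadjusted p under 0.05). In each of these runs 0 of all genes passed, against 1226 in the main run. For the same 6-time comparison, leaving out each time gave 1 to 15 members. The 2 called over 3 to 12 h became 0 with no filter (limma, 8 unadjusted), and leaving out each time gave 0 to 5. The 20 called for the late minus early difference became 0 with no filter and 0 with no mean-variance trend (limma, 49 unadjusted in each), and leaving out each time gave 0 to 35. The 49 called for change with time became 27 with no filter and 9 in the control libraries alone (added after seeing the data), and leaving out each time gave 12 to 50. With no filter all 22026 genes were tested; the cause of these changes was not tested.

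The labels give no replicate numbers, and the pairing used is that by time, with each CAF medium library set against the control library of its own time. With 1 library per medium and time, a call over 24 to 72 h rests on 3 pairs. The least read value of a member rested on 106 reads, a counting error of 9.71%, which covers sampling of reads only.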
